A study of Mus musculus with 9 samples.

Results

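The genes of collagen chains were examined in a mouse pancreatic cancer cell line that had been stably transfected. They were taken as every probe set with a single gene whose symbol on the array platform is Col, a type number, a and a chain number, with the brightest probe set standing for each gene. This gave 42 collagen genes of 18193 genes on the array, through 82 probe sets. Of the 42, 11 encode fibrillar chains, 6 the type IV chains of basement membranes and 25 other chains. The choice used names only, and no measured difference.

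The cells were line 170#3, from mice of a mixed (C57BL6 x FVB x 129Sv) background, grown as a monolayer in medium with serum. The stable transfection was beta-catenin, through which Wnt signals reach TCF target genes, in one group, and ICAT, a protein that binds beta-catenin and keeps it from TCF factors, in another. Cells whose transfection is labelled control were the third, and each group had 3 arrays, which the labels call biological replicates. The promoter of the transgenes and whether a group was 1 clone or a pool are not given in the labels, and p-values cover just the spread of these 9 arrays.

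Collagen chains carry a glycine at regular intervals and wind around each other into a helix, within the cell, before secretion. Fibrillar collagens (types I, II, III, V, XI, XXIV and XXVII) assemble into fibrils, and type IV forms the sheet of basement membranes. Type VI forms beaded microfibrils, and the fibril-associated chains decorate fibrils made by others. Pancreatic cancer is known for a dense, collagen-rich stroma, laid down largely by fibroblasts and stellate cells. The samples here were a cultured line, and the values are RNA levels, not protein.

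Values are log2 expression made by the authors with RMA, 1 unit being a 2-fold change, and levels of different genes are not compared because each probe set has its own brightness. A gene was tested where 3 or more arrays read 5 or higher, which held for 15235 genes. Array medians lay between 6.21 and 6.29. Ctnnb1, the gene of beta-catenin, averaged 12.88 in beta-catenin, 12.88 in ICAT and 12.69 in control cells, and Ctnnbip1, the gene of ICAT, averaged 8.78, 8.79 and 8.65 in the same order. No difference between the lines was called (limma adjusted p = 0.972 and 0.965), so these probe sets do not tell the transfections apart, and whether they can detect the transgenes was not tested. The median SD between replicates over the 37 tested collagen genes was 0.0876 in beta-catenin, 0.156 in ICAT and 0.0774 in control cells. A gene was called where the limma adjusted p was under 0.05, and rose and fell are used only of such genes. Of the 9 epithelial and ductal markers on the array, 1 reached 9 on any array (Sox9), and Cdh1, the epithelial cadherin, lay under 5 on all. Of 11 fibroblast and stellate markers 3 reached 9 on an array (Pdgfra, Pdgfrb and Acta2), while Fap and Lum lay under 5 on all arrays. The mean over that list lay between 6.62 and 6.80 in beta-catenin, 6.82 and 7.23 in ICAT and 6.38 and 6.44 in control cells. The epithelial and ductal list averaged 6.19 to 6.23 in beta-catenin, 6.48 to 6.66 in ICAT and 6.22 to 6.27 in control cells. Of 5 immune markers Ptprc and Itgam lay under 5 on all arrays, Cd3e reached 7.20, and Cd68 was 1.47-fold lower in beta-catenin cells (adjusted p = 0.000888). Of 4 endothelial markers Cdh5 lay under 5 on all arrays, Kdr reached 7.67 and neither of the 2 tested was called. Of 3 acinar markers on the array Cela1 averaged 9.35 in beta-catenin, 8.54 in ICAT and 8.14 in control cells. It rose 2.31-fold and 1.32-fold (adjusted p = 1.52e-07 and 0.000844), while Cpa1 was not called and Ptf1a was not tested.

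Of the 42 collagen genes 37 were tested. The other 5 (Col6a5, Col8a2, Col17a1, Col24a1 and Col26a1) had means over the 9 arrays between 3.17 and 4.60. In beta-catenin cells 10 of the 37 rose and 6 fell (27.0 and 16.2%), where 19.6% of all tested genes rose and 15.4% fell. In ICAT cells 13 of 37 rose and none fell (35.1%), where 18.7% of all tested genes rose and 18.5% fell. Without adjustment, 2 collagen genes (Col4a2 and Col22a1) had a limma p under 0.05 for a lower level in ICAT cells. The median log2 difference from control over the 37 was -0.02 in beta-catenin and 0.08 in ICAT cells. Over all tested genes it was -0.03 and -0.01. Between the lines, 4 of 37 were higher and 12 lower in beta-catenin than in ICAT cells (10.8 and 32.4%), where 22.5% of all tested genes were higher and 17.9% lower, 40.4% in all. A rise of at least 2-fold was called for 5 collagen genes in beta-catenin cells (3.01% of all tested genes) and for 7 in ICAT cells (2.49%). A fall of at least 2-fold was called for 2 in beta-catenin cells (1.61%) and for 0 in ICAT cells (0.453%). Between the lines 2 were at least 2-fold higher (1.49%) and 3 at least 2-fold lower (2.48%) in beta-catenin than in ICAT cells. The arrays of the groups did not overlap for 19 collagen genes between beta-catenin and control (51.4%, against 54.1% of all tested genes), 16 between ICAT and control (43.2 against 46.2%) and 17 between the lines (45.9 against 47.6%). Both comparisons with control use the same 3 control arrays, so their values are given side by side.

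**Figure D1:**
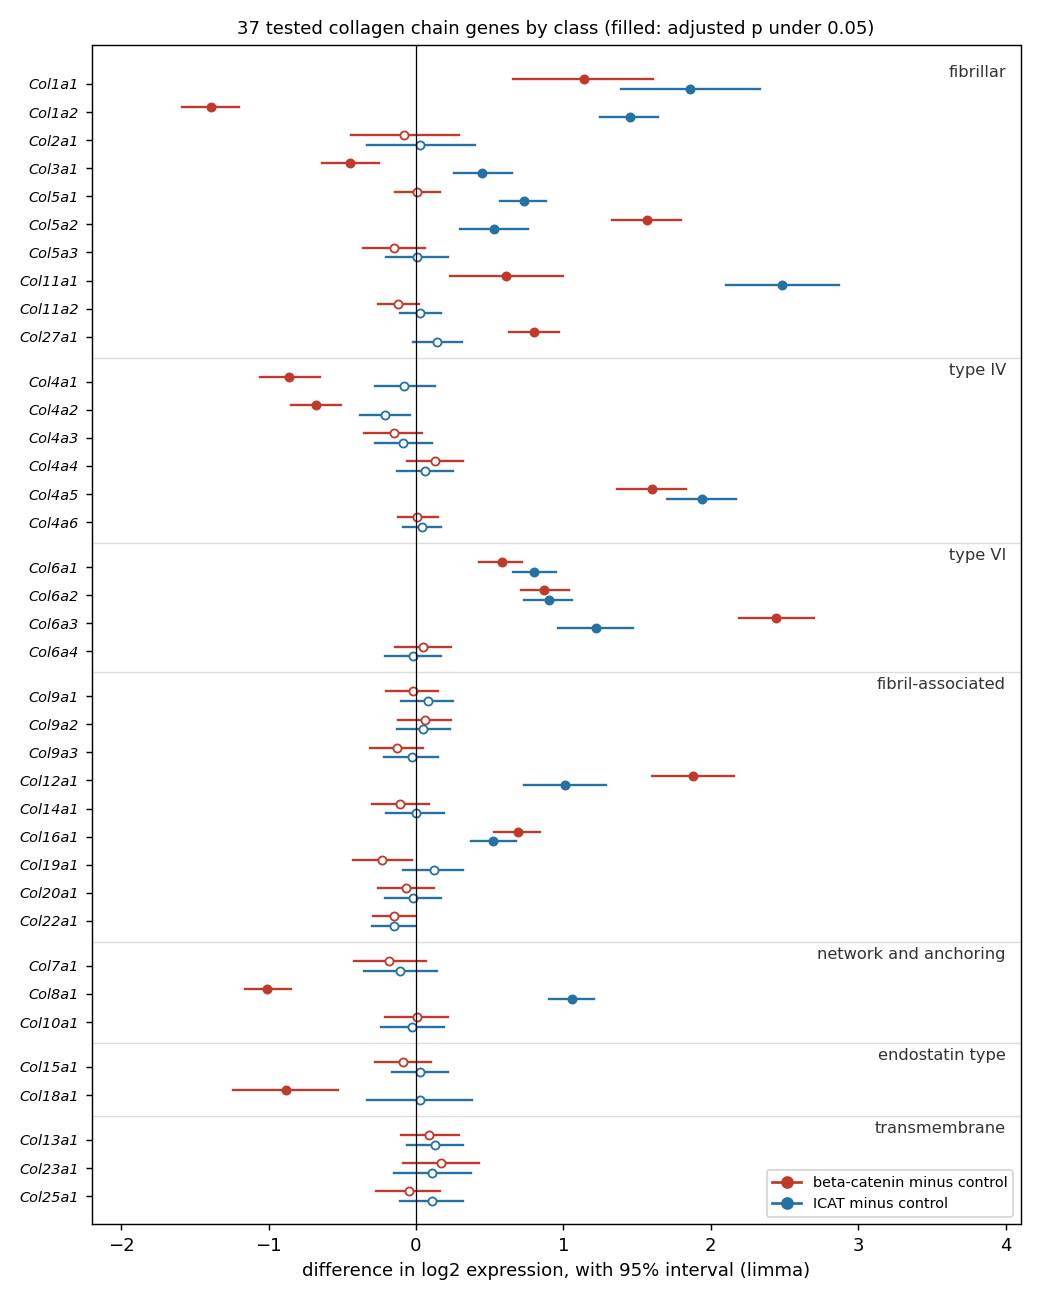
Differences in log2 expression from control for the 37 tested collagen genes, grouped by class, with beta-catenin cells above ICAT cells in each row. Points are limma estimates from 3 arrays per group, bars are 95% intervals and filled points are called genes. Col1a2, Col3a1 and Col8a1 lie on opposite sides of 0, while Col6a3, Col12a1, Col5a2 and Col4a5 lie to the right in both lines.

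Promoter sequences are shown for the genes called in opposite directions (Col1a2, Col3a1, Col8a1) and for Col6a3, the largest riser with beta-catenin, so that their start regions can be compared. Each is the 250 bases before the annotated start, 5′ to 3′ on the gene's strand, from RefSeq on GRCm38.p6. The Col1a2 stretch is chr6:4505368-4505617 on the plus strand, Col3a1 is chr1:45311288-45311537 on the plus strand, Col8a1 is chr16:57754738-57754987 on the minus strand and Col6a3 is chr1:90843972-90844221 on the minus strand. Capitals mark matches to the letters of the motifs, on either strand and anywhere in the stretch, and whether a match acts was not tested. The motifs are CCAAT (the CCAAT box), TATAAA (the TATA box), GGGCGG (a core of the Sp1 site) and CTTTGAT (a core form of the TCF/LEF site). Matches do not overlap in these stretches.
Col1a2: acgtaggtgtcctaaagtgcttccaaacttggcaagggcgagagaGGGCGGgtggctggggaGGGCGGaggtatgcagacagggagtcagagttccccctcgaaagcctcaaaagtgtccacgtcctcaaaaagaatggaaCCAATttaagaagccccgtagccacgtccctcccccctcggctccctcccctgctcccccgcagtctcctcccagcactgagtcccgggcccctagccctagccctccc
Col3a1: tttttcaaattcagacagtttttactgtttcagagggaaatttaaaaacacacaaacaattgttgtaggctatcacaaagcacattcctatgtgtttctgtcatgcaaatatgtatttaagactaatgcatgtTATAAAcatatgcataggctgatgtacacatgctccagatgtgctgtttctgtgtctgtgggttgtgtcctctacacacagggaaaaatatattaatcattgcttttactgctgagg
Col8a1: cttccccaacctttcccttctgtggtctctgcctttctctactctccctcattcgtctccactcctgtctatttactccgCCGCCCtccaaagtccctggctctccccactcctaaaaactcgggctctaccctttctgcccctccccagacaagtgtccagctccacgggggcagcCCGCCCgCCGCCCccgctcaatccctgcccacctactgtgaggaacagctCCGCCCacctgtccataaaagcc
Col6a3: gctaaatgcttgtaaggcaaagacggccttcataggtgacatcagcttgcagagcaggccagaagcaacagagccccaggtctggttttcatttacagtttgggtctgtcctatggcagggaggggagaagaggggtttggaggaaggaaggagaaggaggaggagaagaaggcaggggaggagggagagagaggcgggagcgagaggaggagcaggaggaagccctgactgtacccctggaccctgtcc

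The Col1a2 stretch holds 1 CCAAT match and 2 matches to the Sp1 core. Col3a1 holds 1 TATAAA match, at -117 from the start, Col8a1 holds 4 matches to the Sp1 core and Col6a3 holds none of the 4 motifs. The TCF/LEF core is in none of the 4 stretches. Of the 42 collagen genes 33 had an entry in the promoter table. Of these, CCAAT was in 13, TATAAA in 5, the Sp1 core in 20 and the TCF/LEF core in 1 (Col9a2), at any position. Over all 32851 promoter stretches of this length the motifs were in 33.8%, 12.4%, 32.7% and 3.21%. These shares count stretches, not genes, and are not limited to genes on the array, so they are not like for like with the collagen counts. No motif of the 4 was in all of Col1a2, Col3a1 and Col8a1.

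Among the 10 tested fibrillar genes, beta-catenin cells had 4 that rose and 2 that fell, and ICAT cells had 6 that rose and none that fell. In each line 60.0% were called, against 34.9% of all tested genes with beta-catenin and 37.2% with ICAT. In such bulk samples fewer cells that carry a transcript and less of it per cell cannot be told apart. The median log2 difference of the 10 was -0.03 in beta-catenin and 0.49 in ICAT cells. Col1a2, the second chain of type I collagen, had log2 expression of 10.87, 10.87 and 10.60 in beta-catenin cells, 13.48, 13.68 and 13.70 in ICAT cells and 12.14, 12.19 and 12.20 in control cells. The 3 groups did not overlap, with control in the middle. The beta-catenin cells had 2.63-fold less Col1a2 than control (log2 difference -1.39 ± 0.0885 SE, adjusted p = 3.48e-07) and the ICAT cells 2.73-fold more (1.45 ± 0.0885, adjusted p = 8.28e-07). It was 7.16-fold lower in beta-catenin than in ICAT cells (adjusted p = 2.09e-09). A second probe set of the gene gave -1.01 and 1.78 against control, also called, both in a fit over all probe sets. The third lay under 5 on all beta-catenin arrays, which leaves no exact fall there, and gave 0.44 in ICAT cells, not called (adjusted p = 0.0677).

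Col1a1, which encodes the partner chain of type I collagen, behaved differently in beta-catenin cells. Its values were 7.45, 7.35 and 6.95 in beta-catenin cells, 7.41, 8.10 and 8.43 in ICAT cells and 6.26, 6.09 and 6.0 in control cells. Both transfected groups lay above all control arrays, and they overlapped each other. The control values lay within or under the range of the array medians, and whether Col1a1 was detected in control cells was not tested. The rise of Col1a1 was 2.20-fold with beta-catenin (adjusted p = 0.00151) and 3.63-fold with ICAT (adjusted p = 5.52e-05). The line difference of -0.73 passed (adjusted p = 0.0183), but leaving out beta-catenin replicate 3, ICAT replicate 2 or ICAT replicate 3 gave adjusted p-values of 0.0676 to 0.0794. The second probe set moved the same way, by 0.97 in beta-catenin and 2.32 in ICAT cells.

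Col3a1, the chain of type III collagen, read 12.28, 12.26 and 12.21 in beta-catenin cells, 12.93, 13.32 and 13.20 in ICAT cells and 12.70, 12.68 and 12.70 in control cells. By this probe set the groups did not overlap, with a 1.36-fold fall in beta-catenin cells (adjusted p = 0.00205) and a 1.37-fold rise in ICAT cells (adjusted p = 0.00193). Its dimmer probe set agreed only for ICAT. There the value was 0.54 above control in beta-catenin cells (adjusted p = 0.00239 over all probe sets) and 0.89 above in ICAT cells (adjusted p = 8.15e-05), so the direction of Col3a1 in beta-catenin cells depends on the probe set.

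Col5a2, a chain of type V collagen, which starts fibril assembly and limits fibril width, rose most among the fibrillar genes in beta-catenin cells. Its values were 13.08, 13.07 and 12.94 in beta-catenin cells, 11.76, 11.97 and 12.25 in ICAT cells and 11.44, 11.46 and 11.49 in control cells. All 3 groups were apart, with beta-catenin cells highest. The rise was 2.96-fold in beta-catenin (adjusted p = 5.44e-07) and 1.44-fold in ICAT cells (adjusted p = 0.00216), and the lines differed 2.05-fold (adjusted p = 1.72e-05). The dimmer probe set rose by 2.36 and 0.45 on the log2 scale. Col5a1, its main partner, averaged 9.82 ± 0.0939 in beta-catenin, 10.54 ± 0.0568 in ICAT and 9.81 ± 0.0675 in control cells (SD, n = 3 each). With ICAT its rise was 1.66-fold (adjusted p = 1.57e-05). In beta-catenin cells its difference was 0.01 (95% interval -0.14 to 0.16), although 1 of its dimmer probe sets rose there by 0.38 (adjusted p = 0.000876 over all probe sets) and the mean of all its probe sets was 0.21 higher (adjusted p = 0.0214).

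Col11a1, a type XI chain that can join type V fibrils and is used as a marker of cancer-associated fibroblasts, had the largest rise of any collagen gene in ICAT cells. It read 5.80, 5.54 and 5.40 in beta-catenin cells, 7.27, 7.31 and 7.79 in ICAT cells and 5.28, 5.01 and 4.64 in control cells. The ICAT arrays stood well above all 6 others, and the beta-catenin arrays lay just above control. With control arrays under 5 set to 5, the rise of Col11a1 was at least 1.40-fold with beta-catenin (adjusted p = 0.0177) and at least 5.15-fold with ICAT (adjusted p = 1.87e-06). The smaller rise did not pass without control replicate 3 or beta-catenin replicate 1 (adjusted p = 0.0728 and 0.0703). A second probe set read 6.66, 6.62 and 6.73 in ICAT cells and lay under 5 on all beta-catenin and control arrays, so it bears on the rise in ICAT cells but not on the smaller one.

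Col27a1, a fibrillar chain best known from cartilage, averaged 9.09 ± 0.118 in beta-catenin, 8.44 ± 0.0644 in ICAT and 8.29 ± 0.0774 in control cells. Its rise with beta-catenin was 1.74-fold (adjusted p = 8.16e-06), and it was 1.57-fold higher there than in ICAT cells (adjusted p = 4.36e-05). Its ICAT difference was 0.14 (95% interval -0.02 to 0.31, adjusted p = 0.174). Col2a1, Col5a3 and Col11a2, of which Col2a1 and Col11a2 are cartilage chains, were called in no comparison. Their means lay between 6.06 and 6.61 in every group.

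**Figure D2:**
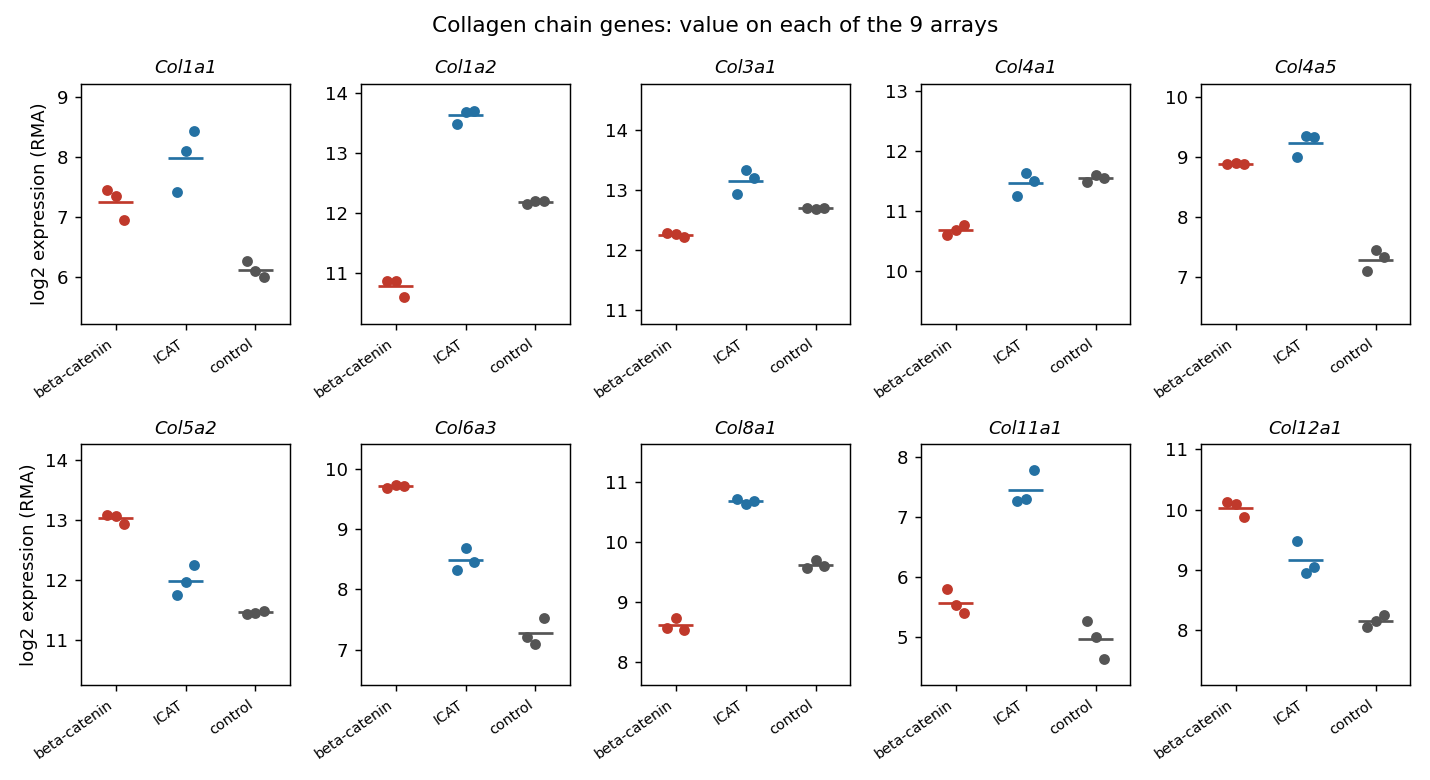
Log2 expression (RMA) of 10 collagen genes on each array, with a point per array and a line at the mean of 3. The vertical axis spans 4 units in each panel, and panels start at different values. Col1a2, Col3a1 and Col8a1 are lowest in beta-catenin and highest in ICAT cells, while Col5a2, Col6a3 and Col12a1 are highest in beta-catenin cells.

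All 6 genes of the type IV chains of basement membranes were tested, with 1 riser and 2 fallers in beta-catenin cells (50% called, against 34.9% of all tested genes) and 1 riser and no faller in ICAT cells (16.7%, against 37.2%). Col4a1 and Col4a2 encode the chains found in nearly all basement membranes and lie head to head on opposite strands. Col4a1 read 10.60, 10.68 and 10.76 in beta-catenin cells, 11.25, 11.63 and 11.50 in ICAT cells and 11.48, 11.59 and 11.54 in control cells. The beta-catenin arrays lay below all others, and ICAT overlapped control. The fall of Col4a1 with beta-catenin was 1.81-fold (adjusted p = 2.24e-05). Col4a2 averaged 10.01 ± 0.0241 in beta-catenin, 10.48 ± 0.163 in ICAT and 10.69 ± 0.0147 in control cells and fell 1.60-fold with beta-catenin (adjusted p = 3.73e-05). Both were lower in beta-catenin than in ICAT cells (adjusted p = 5.07e-05 and 0.000568).

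In ICAT cells Col4a1 differed from control by -0.08 (95% interval -0.28 to 0.13) and Col4a2 by -0.21 (-0.38 to -0.04, adjusted p = 0.0543). The Col4a2 difference passed with a filter of log2 7 (adjusted p = 0.0337) and without ICAT replicate 2 or 3 (adjusted p = 0.0236 and 0.0404). The dimmer Col4a1 probe set was 0.31 lower in ICAT cells (adjusted p = 0.0297 over all probe sets). The direction of the pair in beta-catenin cells was the same by all 3 of their probe sets.

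Col4a5, whose chain is known from the basement membranes of kidney, smooth muscle and other tissues, went the opposite way. It read 8.88, 8.90 and 8.89 in beta-catenin cells, 9.0, 9.35 and 9.34 in ICAT cells and 7.10, 7.45 and 7.34 in control cells. Both transfected groups were above every control array. The rise was 3.02-fold in beta-catenin (adjusted p = 5.13e-07) and 3.83-fold in ICAT cells (adjusted p = 4.18e-07), and the second probe set rose by 1.14 and 1.43. The line difference of -0.34 (adjusted p = 0.0248) did not pass when any 1 of the 3 beta-catenin arrays, ICAT replicate 2 or ICAT replicate 3 was left out, with adjusted p-values of 0.0577 to 0.0981. Col4a6 lies head to head with Col4a5, and its chain joins Col4a5 in some basement membranes. It averaged 5.91 in beta-catenin, 5.94 in ICAT and 5.89 in control cells, with differences from control of 0.01 (95% interval -0.12 to 0.15) and 0.04 (-0.09 to 0.17). Col4a3 and Col4a4, the other chains that pair with Col4a5, had differences between -0.15 and 0.13 and were not called.

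Col6a1, Col6a2 and Col6a3 encode the classical chains of the type VI molecule, and all rose in both lines. Col6a3 read 9.69, 9.74 and 9.72 in beta-catenin cells, 8.32, 8.69 and 8.46 in ICAT cells and 7.21, 7.09 and 7.53 in control cells. The groups were apart, in the order beta-catenin, ICAT, control. With beta-catenin its 5.44-fold rise (adjusted p = 3.61e-08) was the largest of any collagen gene in that comparison, and with ICAT it was 2.32-fold (adjusted p = 1.45e-05), and the lines differed 2.34-fold (adjusted p = 9.37e-06). Col6a1 averaged 10.50 ± 0.0122 in beta-catenin, 10.73 ± 0.0966 in ICAT and 9.93 ± 0.0469 in control cells. Col6a2 averaged 10.08 ± 0.0666, 10.11 ± 0.120 and 9.21 ± 0.0665 in the same order. They rose 1.49-fold and 1.83-fold with beta-catenin and 1.74-fold and 1.86-fold with ICAT (adjusted p at most 3.25e-05). Col6a4 was not called, with 5.83 in beta-catenin, 5.76 in ICAT and 5.78 in control cells.

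Col12a1, a fibril-associated chain found along type I fibrils, read 10.12, 10.09 and 9.87 in beta-catenin cells, 9.48, 8.94 and 9.05 in ICAT cells and 8.05, 8.14 and 8.25 in control cells. All groups were apart. Col12a1 rose 3.68-fold in beta-catenin (adjusted p = 5.53e-07) and 2.01-fold in ICAT cells (adjusted p = 0.000102). Its other tested probe set rose by 0.47 in beta-catenin cells and differed by 0.08 in ICAT cells, where it was not called (adjusted p = 0.622 over all probe sets). Col16a1, another fibril-associated chain, averaged 9.85 in beta-catenin, 9.69 in ICAT and 9.17 in control cells and rose 1.61-fold and 1.44-fold (adjusted p = 1.38e-05 and 0.000145). Col19a1 was 1.27-fold lower in beta-catenin than in ICAT cells (adjusted p = 0.0105) and was not called against control. Without beta-catenin replicate 2 the line difference was -0.27 and did not pass (adjusted p = 0.052). The other 6 fibril-associated genes were called in no comparison.

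Col8a1, a chain of the short-chain network collagen of vessel walls and of the membrane under the corneal endothelium, read 8.57, 8.74 and 8.54 in beta-catenin cells, 10.72, 10.64 and 10.69 in ICAT cells and 9.57, 9.70 and 9.60 in control cells. As for Col1a2, the groups were apart with control in the middle. Col8a1 was 2.01-fold below control with beta-catenin (adjusted p = 7.18e-07) and 2.08-fold above it with ICAT (adjusted p = 1.35e-06), and it was 4.19-fold lower in beta-catenin than in ICAT cells (adjusted p = 4.37e-09). Its 2 other probe sets were called in the same directions. Its partner Col8a2 lay under the filter, with means between 4.37 and 4.65.

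Col18a1, whose chain lies at basement membranes and releases endostatin, averaged 7.67 ± 0.0423 in beta-catenin, 8.58 ± 0.429 in ICAT and 8.55 ± 0.0806 in control cells. Its fall with beta-catenin was 1.85-fold (adjusted p = 0.0012). In ICAT cells the difference was 0.03 (95% interval -0.33 to 0.38), and without ICAT replicate 1, which read 8.08, it rose by 0.27 (adjusted p = 0.0117). Col7a1, the anchoring fibril chain of skin, Col10a1, a growth plate chain, Col15a1 and the transmembrane chains Col13a1, Col23a1 and Col25a1 were called in no comparison. In all, 19 tested collagen genes were called nowhere by their brightest probe set. One of them, Col20a1, has a dimmer probe set that was lower in ICAT cells (-0.21, adjusted p = 0.0354 over all probe sets). Their differences from control lay between -0.18 and 0.17 in beta-catenin and -0.15 and 0.13 in ICAT cells, with 95% intervals no wider than -0.47 to 0.43. Of these 19, 16 had a mean under 7 over the 9 arrays, against 2 of the 18 called genes. The same counts were not made over all tested genes, so they have no background to be read against.

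The change of 1 chain was set against that of its partner, each relative to its own control mean. The log2 change of Col1a1 minus that of Col1a2 was 2.64, 2.54 and 2.41 on the beta-catenin arrays, -0.01, 0.47 and 0.78 on the ICAT arrays and 0.18, -0.04 and -0.14 on the control arrays. The type I chains thus changed unequally in beta-catenin cells, with a difference of 2.53, and the arrays of the groups did not overlap (two-sided exact permutation p = 0.1, the smallest that 3 against 3 arrays allow). In ICAT cells the difference was 0.41, and the arrays overlapped control (exact permutation p = 0.2). Both differences rest on the control values of Col1a1, which lay within or under the range of the array medians.

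For type V, Col5a2 changed more than Col5a1 by 1.58, 1.52 and 1.57 on the beta-catenin arrays, by -0.37, -0.24 and 0.02 on the ICAT arrays and by 0.05, -0.04 and 0.00 on the control arrays. For type VI, Col6a3 changed more than Col6a1 by 1.84, 1.87 and 1.89 on the beta-catenin arrays and by 0.24, 0.52 and 0.48 on the ICAT arrays, with control arrays between -0.24 and 0.28. In both types the beta-catenin arrays stood apart from ICAT and control arrays (exact permutation p = 0.1 for each). For the head-to-head pairs, Col4a1 minus Col4a2 was -0.18 in beta-catenin and 0.13 in ICAT cells. Col4a5 minus Col4a6 was 1.58 and 1.89, with no overlap with control in either. That is close to the rise of Col4a5 alone (1.60 and 1.94). Col4a6 read between 5.85 and 5.98 on all 9 arrays, under the array medians, and whether its transcript was detected was not tested. Col3a1 and Col5a2, which lie next to each other among the protein-coding genes of chromosome 1, differed by -2.02 in beta-catenin and -0.08 in ICAT cells by their brightest probe sets. By its dimmer probe set Col3a1 was higher in beta-catenin cells too, as given above.

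**Figure D3:**
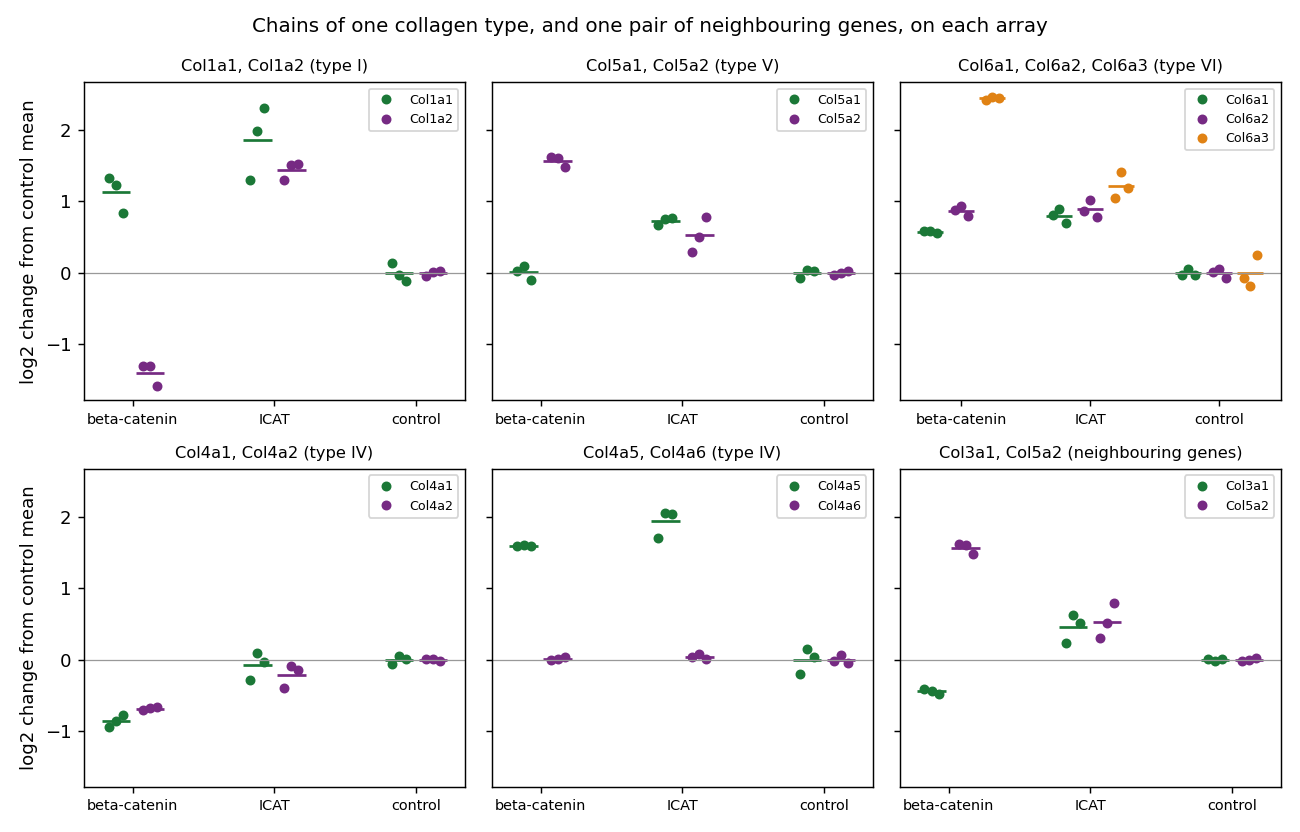
Log2 change from the control mean on each array for chains of 1 collagen type and for the neighbouring genes Col3a1 and Col5a2, with a point per array and a line at the mean of 3. Col1a1 and Col1a2 lie on opposite sides of 0 in beta-catenin cells and on the same side in ICAT cells, and Col6a3 lies above Col6a1 and Col6a2 in beta-catenin cells.

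Among 20 tested genes of collagen biosynthesis and folding, beta-catenin cells had 7 risers and 4 fallers and ICAT cells 11 risers and 2 fallers, where 34.9% and 37.2% of all tested genes were called. The medians were 0.09 in beta-catenin and 0.34 in ICAT cells. P4ha1, a catalytic chain of prolyl hydroxylase, which stabilises the helix, read 9.14, 9.14 and 9.16 in beta-catenin cells, 9.89, 10.19 and 10.29 in ICAT cells and 9.54, 9.55 and 9.58 in control cells. Like Col1a2 it fell with beta-catenin (1.33-fold, adjusted p = 0.00424) and rose with ICAT (1.49-fold, adjusted p = 0.000462). Plod1, a lysyl hydroxylase, did the same, falling 1.43-fold and rising 1.48-fold (adjusted p = 0.00504 and 0.00272). The related P4ha3 was at least 1.89-fold higher with beta-catenin. P3h3, of the prolyl 3-hydroxylase family, rose 1.80-fold in beta-catenin cells, against 2.19-fold in ICAT cells, and the foldase gene Fkbp14 1.5-fold and 2.32-fold. Serpinh1, the collagen chaperone HSP47, rose 1.5-fold and 1.36-fold.

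Of 8 tested genes of procollagen processing and cross-linking 4 rose and 1 fell in each line (50 and 12.5%, where 19.6% of all tested genes rose and 15.4% fell with beta-catenin, and 18.7% rose and 18.5% fell with ICAT). Loxl1, a lysyl oxidase, which starts cross-linking, read 9.97, 9.98 and 9.84 in beta-catenin cells, 10.91, 10.71 and 10.77 in ICAT cells and 8.33, 8.51 and 8.43 in control cells. It rose 2.85-fold and 5.19-fold, and Lox 2.81-fold and 3.76-fold (adjusted p at most 1.85e-06 for both genes). Loxl3 fell 1.36-fold with beta-catenin and rose 2.14-fold with ICAT (adjusted p = 0.000583 and 1.40e-06). Pcolce, an enhancer of procollagen processing, rose 1.54-fold and 1.5-fold, and the related Pcolce2 fell 2.28-fold with ICAT (adjusted p = 0.000593).

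Of 9 tested collagen receptor genes 3 rose and 1 fell in each line, so 44.4% were called, near the 34.9% and 37.2% of all tested genes. Ddr1 was 2.33-fold and 1.45-fold higher in beta-catenin and ICAT cells and Mrc2, an uptake receptor for collagen, 1.58-fold and 2.26-fold. Itgb1, the shared chain of collagen-binding integrins, fell 1.17-fold and 1.18-fold. Of 13 tested fibril-associated proteins 4 rose and 1 fell with beta-catenin (38.5% called, against 34.9% of all tested genes), and 8 rose and none fell with ICAT (61.5%, against 37.2%). Fn1, which encodes fibronectin, fell 1.27-fold with beta-catenin and rose 2.46-fold with ICAT (adjusted p = 0.0126 and 2.19e-06). Matn2 rose 4.64-fold, Ogn 3.97-fold and Bgn 3.14-fold in the ICAT line. Smaller rises of Ogn (1.61-fold, adjusted p = 0.00764) and Bgn (1.62-fold, adjusted p = 0.011) were called in the beta-catenin line. Matn2 was not called there (adjusted p = 0.119). Thbs1, which encodes thrombospondin 1, rose 17.6-fold in the beta-catenin line and 2.63-fold in the ICAT line. Postn and Dcn also stand in the fibroblast marker list, of which 2 of 8 tested genes rose in beta-catenin and 5 of 8 in ICAT cells (25 and 62.5%, where 19.6% and 18.7% of all tested genes rose). Acta2 of that list rose 2.48-fold with beta-catenin (adjusted p = 1.9e-05) and was not called with ICAT (adjusted p = 0.408). Of 7 tested epithelial and ductal markers 0 rose in beta-catenin and 4 in ICAT cells (57.1%), namely Krt18 (2.43-fold), Krt8 (1.85-fold), Sox9 (1.45-fold) and Krt19 (1.21-fold). The part of either marker list in the collagen values was not tested.

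Among 15 tested genes of collagen degradation and its inhibitors, beta-catenin cells had 7 risers and 6 fallers (86.7% called, against 34.9% of all tested genes) and ICAT cells 6 risers and 3 fallers (60.0%, against 37.2%). Mmp13, an interstitial collagenase that cuts fibrils, read 4.25, 4.39 and 4.40 in beta-catenin cells, 10.32, 10.02 and 9.29 in ICAT cells and 8.88, 8.83 and 8.83 in control cells. It went the way of Col1a2, down at least 14.4-fold with beta-catenin (adjusted p = 1.91e-08) and up 2.04-fold with ICAT (adjusted p = 0.00147). Mmp3 and Mmp10, both stromelysins, were 11.8-fold and 8.1-fold lower with beta-catenin (adjusted p = 2.46e-06 and 5.71e-08) and were not called with ICAT. Mmp2, a gelatinase that acts on unfolded collagen, rose 7.07-fold and 3.56-fold (adjusted p = 1.18e-08 and 9.25e-07). Timp3, an inhibitor of these proteases, rose 2.13-fold and 2.82-fold.

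**Figure D4:**
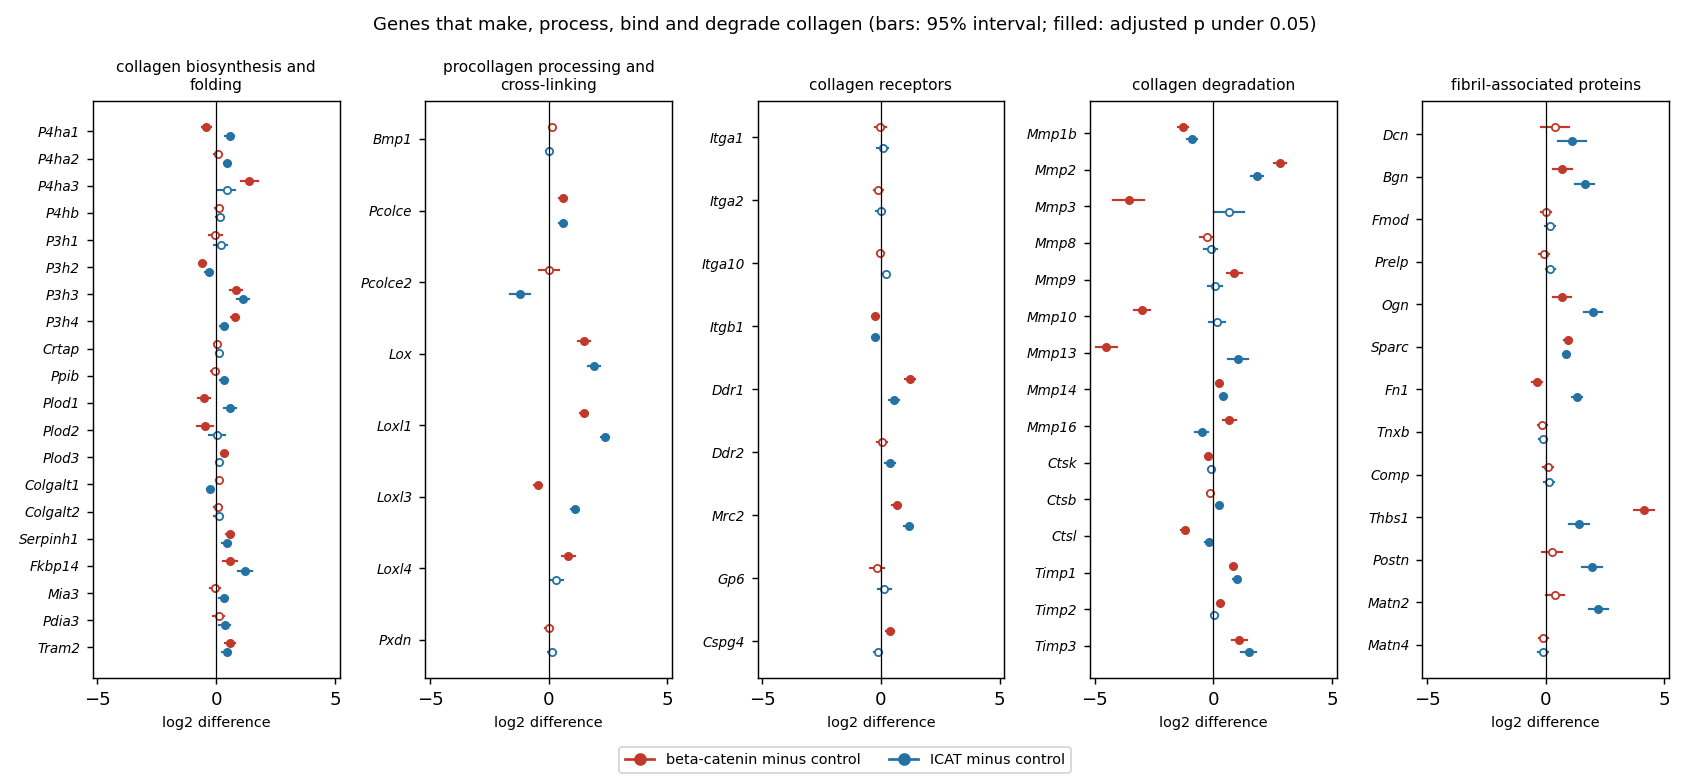
Differences in log2 expression from control for tested genes that make, process, bind and degrade collagen, with beta-catenin cells above ICAT cells in each row. Bars are 95% intervals from limma with 3 arrays per group, and filled points are called genes. Lox and Loxl1 lie right of 0 in both lines, and Mmp13, Fn1, P4ha1, Plod1 and Loxl3 lie on opposite sides.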

How the data were processed

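Deposited were log2 expression values of every probe set on each array. The submitters' processing notes name RMA and affy, with no version given in the sources used here. RNA was labelled with a 3′ IVT kit, per the labels' protocols. The array number limits the precision, and RMA would hide a shift of all genes.

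Of 45037 probe sets 34945 had 1 gene symbol in the platform annotation, 932 several and 9160 none. Symbols were updated through RefSeq (204 kept their own). No 2 arrays were identical. One limma 3.58.1 model in R 4.3.3, with a mean per group over all 9 arrays, was fitted to 15235 genes, and p-values were adjusted by Benjamini-Hochberg over all of them. Other probe sets were read from a fit over all probe sets. The fit was run on simulated data with few genes changed, and only in the beta-catenin group. Far more genes were called in the real data, so the simulation does not give their error rates. Where a group mean lay under 5, its arrays under 5 were raised to 5 for the fold, a lower bound. That limit was chosen, not measured.

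Array values are given for the 10 collagen genes called with a log2 difference of at least 1 or with a group mean of at least 11. Of each list, genes among the 4 called ones with the largest differences in a comparison are named. Serpinh1, Fn1, Pdgfra, Acta2, Cela1 and Postn were named, and P4ha1, Plod1 and Mmp13 set beside Col1a2, after their values were seen. The members and lists were chosen with earlier results of these data known. No label says that a replicate number marks a shared day or culture, so no block was used. Alternatives were other filters, probe set rules, arrays in the fit, array weights, eBayes settings, median centring, a replicate block and leaving out each array.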

Additional observations from a re-analysis of the deposited data

Results flagged for a closer look

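Among the tested collagen genes 3 were called in opposite directions against control in the transfected lines, by their brightest probe sets. The share of all tested genes called in opposite directions was not counted, so these 3 have no background to be read against. For each, the difference between the lines is given from the same limma fit. It combines both differences by which the genes were picked, so its size and low p-value add no separate evidence. The log2 difference of beta-catenin minus ICAT cells was -2.84 for Col1a2 (adjusted p = 2.09e-09), -2.07 for Col8a1 (adjusted p = 4.37e-09) and -0.90 for Col3a1 (adjusted p = 1.35e-05). All beta-catenin arrays lay below all ICAT arrays for the 3 genes, which also follows from the control arrays lying between them. Over all tested genes, 47.6% had arrays that did not overlap between the lines. The other probe sets of Col1a2 and Col8a1 were lower in beta-catenin than in ICAT cells too. So was the dimmer probe set of Col3a1, by 0.36 (adjusted p = 0.0214 over all probe sets). That dimmer probe set lay above control in both lines, by 0.535 log2 units for the beta-catenin group and 0.893 for the ICAT group. The opposite directions of Col3a1 against control thus rest on its brightest probe set alone.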

How the results depend on the processing

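Of the differences of 18 called collagen genes under up to 18 alternative settings per comparison, 316 kept their direction and side of the threshold for beta-catenin against control, 315 for ICAT against control and 311 for beta-catenin against ICAT. Col3a1 reversed in beta-catenin cells with the mean of all probe sets, to 0.04 (adjusted p = 0.757), since its probe sets disagree, and Col5a1 was called higher there, at 0.21 (adjusted p = 0.0214). With array weights 8324 genes in all, 10 lower collagen genes and 12 collagen genes outside the fibrillar and type IV classes were called with beta-catenin, against 5321, 6 and 7, and 8 fibril-associated protein genes, against 5 (also 8 when the ICAT arrays were left out of the fit). The cause was not tested. For ICAT against control, 1 collagen gene (Col4a2) was called lower, against 0, and 2 type IV genes were called, against 1, with a filter of log2 7, with the mean of all probe sets, with trend and robust eBayes, and with the replicate block. The replicate block changed 1 more call among these genes, Col19a1 in beta-catenin cells (adjusted p = 0.0263). Correlations of same-numbered arrays' deviations lay between -0.129 and 0.41. Differently numbered arrays were not compared, so these values do not settle whether the numbers mark pairs.

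Leaving out 1 array at a time gave, for beta-catenin against control, 4274 to 6222 genes in all, 9 to 10 higher and 6 to 7 lower collagen genes, with 5 to 6 fibrillar, 3 type IV and 7 other. For ICAT against control the ranges were 4584 to 6148 genes, 13 to 14 higher, 0 to 1 lower, 6 fibrillar, 1 to 2 type IV and 6 to 7 other. For beta-catenin against ICAT they were 5162 to 6967 genes, 4 higher and 9 to 13 lower, 6 to 8 fibrillar, 2 to 3 type IV and 5 to 7 other. Dim probe sets limit what can be seen of 5 untested collagen genes. The same holds for the 16 tested genes with a mean under 7 that were called nowhere, and whether these were detected was not tested.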

Other observations

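The highest SD of a tested collagen gene was 0.265 in beta-catenin cells (Col1a1), 0.520 in ICAT cells (Col1a1) and 0.321 in control cells (Col11a1). Of the 13 collagen genes that rose in ICAT cells, 8 had their lowest ICAT value on the array of replicate 1, among them Col1a1 and Col5a2. Of the 5 fibroblast and stellate markers that rose in ICAT cells, 4 had their highest ICAT value on that array. All 4 epithelial and ductal markers that rose in ICAT cells (Krt8, Krt18, Krt19 and Sox9) had their lowest ICAT value there, as most of those collagen genes did. The order of the ICAT arrays over all genes that rose was not counted, so these counts have no background to be read against. Pdgfra read 11.27, 10.45 and 10.07 and Postn 8.00, 7.07 and 7.23 on ICAT arrays 1, 2 and 3, while 3 of the 13 collagen genes were highest on array 1. Without ICAT replicate 1, 14 collagen genes rose in ICAT cells.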
